A study of Mus musculus with 19 samples.

Results

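Brown adipose tissue (BAT) of cold-exposed wild-type (WT) mice was set against inguinal white adipose tissue (iWAT) of cold-exposed WT mice. The comparison uses the 3 libraries WT_Cold_BAT1 to WT_Cold_BAT3 and the 3 libraries WT_Cold_iWAT1 to WT_Cold_iWAT3, which are 6 of the 19 libraries of the series. The study as a whole addresses Musclin, a peptide secreted by skeletal muscle, in transgenic mice (MCK-Musclin) that overexpress it in skeletal muscle from the promoter of muscle creatine kinase, and the WT mice here were the cold-exposed controls of that line. All 6 libraries come from WT mice kept at 8 °C for 1 week, and none of them carries the transgene. By the study's methods the mice were adult males of a C57BL/6J background fed a chow diet. One label of the BAT libraries gives the tissue as brown and white at once, whereas their titles give BAT. By the study’s methods the libraries of a group came from biologically independent animals. The sources do not say whether a BAT and an iWAT library came from the same mouse.

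Brown adipocytes hold many mitochondria and burn fatty acids and glucose to make heat. The uncoupling protein UCP1 lets protons return across the inner mitochondrial membrane without making ATP, and noradrenaline from sympathetic nerves turns this pathway on through beta-adrenergic receptors, adenylyl cyclase and cAMP. White adipocytes store triglyceride in 1 large droplet and secrete leptin and other adipokines. In the cold, the inguinal depot of the mouse also gains UCP1-expressing adipocytes, which are called beige, so the iWAT examined here was itself a cold-adapted tissue. The inguinal pad usually contains a lymph node, while the interscapular BAT pad lies next to skeletal muscle.

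Values are FPKM, which count fragments relative to the length of a gene and the size of its library. There are 55487 genes in the BAT table and 13756 genes in the iWAT table, of which 13750 are in both. Each library was rescaled to a sum of 1000000 over these shared genes, so a value is a share of the RNA assigned to shared genes. Shared genes hold 36.3% to 37.4% of the summed FPKM of the WT BAT libraries. Most of the rest is in the 37 mitochondrially encoded genes, missing from the iWAT table, which take 50.6% to 52.0%. Unprocessed pseudogenes that are also missing from the iWAT table take 9.53% to 9.81%. The read depth of the libraries is not known from these values. Differences are given as log2(rescaled FPKM + 1), BAT minus iWAT, with the standard error (SE), and were tested with limma and Benjamini-Hochberg adjusted p-values over 12947 genes with a mean of at least 1. A gene is called higher or lower where its adjusted p is under 0.05 and its log2 difference is beyond 1.

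By that rule 900 genes were called higher in BAT, which is 6.95% of the genes tested, and 4054 were called lower, which is 31.3% (38.3% in either direction). By adjusted p alone 68.6% of genes differed, so at least that share of all genes also reached an unadjusted p under 0.05. The list counts by unadjusted p below stand beside that share. The median difference of all genes tested was -0.54, so most genes took a smaller share of the BAT library. Under a median-ratio scaling, which moves that median to -0.02, the counts were 1824 higher (14.1%) and 2518 lower (19.4%), together 33.5%, and the share of called genes that were higher went from 18.2% to 42.0%. All 900 higher calls and 2518 of the lower calls held under both scalings, and no gene changed from one direction to the other. The 3 BAT libraries lay apart from the 3 iWAT libraries for 73.4% of genes. The iWAT table limits which genes could be tested. It lacks 41737 genes of the BAT table, 1019 of them with a mean of at least 1 FPKM in WT BAT, whereas 6 genes are listed for iWAT only. Genes listed for BAT only could not be called higher, so the counts of higher and lower genes are not on an equal footing. The tissue, the RNA extraction (TRIzol for BAT, a column kit for iWAT, by the labels) and the deposited table cannot be told apart in this comparison, and the part of extraction and table in the differences below was not tested.

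Of the markers Ucp1, Cidea and Zic1, which are used to recognise brown fat, Ucp1 and Cidea could be compared between the tissues, and both were higher in the libraries labelled BAT. Ucp1 (chr8:83290352-83298452, plus strand, GRCm38) stood at 14192, 11678 and 10626 in the BAT libraries and at 354, 681 and 940 in the iWAT libraries. Every BAT library lay above every iWAT library, and the mean was 18.4-fold higher (log2 difference 4.30, SE 0.33, adjusted p = 2.2e-05). Within iWAT the lowest and the highest library also lay far apart, and leaving out 1 library at a time gave log2 differences between 3.91 and 4.62. Cidea, which coats lipid droplets in brown fat, stood at 12475, 10898 and 12953 in BAT and at 791, 982 and 1158 in iWAT (12.4-fold, log2 difference 3.64, SE 0.16, adjusted p = 3.5e-06). Zic1, a transcription factor of the embryonic somite that marks classical brown fat, is listed only in the BAT table, at 2.53, 2.06 and 0.974 FPKM before rescaling. Ucp1 and Cidea were present in every cold iWAT library too: Ucp1 ranked 5 in BAT and 182 in iWAT by mean level among the shared genes.

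Of 21 thermogenic genes, 16 were called higher in BAT and none lower, with a median difference of 3.01 against -0.54 for all genes; 18 of the 21 reached an unadjusted p under 0.05. Cox7a1, the muscle and heart form of a cytochrome c oxidase subunit, was at 8118, 7118 and 7459 in BAT and at 220, 486 and 532 in iWAT (log2 difference 4.29, SE 0.31, adjusted p = 1.7e-05). Cox8b, a second such form, was at 3153, 3153 and 3385 against 144, 255 and 191 (4.07, SE 0.19). Neither gene had overlapping groups, and iWAT 1 was the lowest library for both. Elovl3, a fatty acid elongase induced by cold, was at 506, 430 and 544 in BAT and at 14.7, 20.9 and 26.0 in iWAT (4.55, SE 0.20, adjusted p = 3.3e-06). Slc27a2, which imports and activates fatty acids, had the largest difference of the list, with 308, 326 and 291 against 5.58, 10.9 and 18.1 (4.76, SE 0.34). The ion channels of the list moved the same way: Kcnk3, a potassium channel, was 9.70-fold and Otop1, a proton channel, 11.3-fold higher.

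Dio2, the deiodinase that makes active thyroid hormone, varied within both tissues, from 61.4 to 190 in BAT and from 4.57 to 19.9 in iWAT. Its groups did not overlap (log2 difference 3.01, SE 0.57, adjusted p = 0.0022), and the difference was 2.40 without iWAT 1, its lowest library. Some regulators of the programme were called and others were not. Ppargc1b, a coactivator of mitochondrial biogenesis, was at 36.9, 62.5 and 49.2 in BAT and 11.8, 8.15 and 10.03 in iWAT (2.18, SE 0.21, adjusted p = 7.4e-05). Its paralog Ppargc1a was at 25.6, 48.3 and 37.1 against 19.5, 19.8 and 17.7, a log2 difference of 0.88 (SE 0.22, adjusted p = 0.0076) that is under the size needed for a call. Prdm16 and Ebf2, which commit precursors to the brown lineage, had differences of 0.53 (adjusted p = 0.058) and 0.19 (adjusted p = 0.53), and for Ebf2 the libraries of the tissues overlapped. Adrb3, the beta3-adrenergic receptor, was at 84.9, 221 and 162 in BAT and 152, 257 and 181 in iWAT (-0.40, adjusted p = 0.32). Esrra, a nuclear receptor for mitochondrial genes, stood at 153 in BAT 1 and at 40.0 and 43.2 in the other BAT libraries, against 32.2 to 34.1 in iWAT (0.94, adjusted p = 0.11). Under the median-ratio scaling Ppargc1a, Prdm16 and Esrra were called higher too, which makes 19 of the 21.

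**Figure D1:**
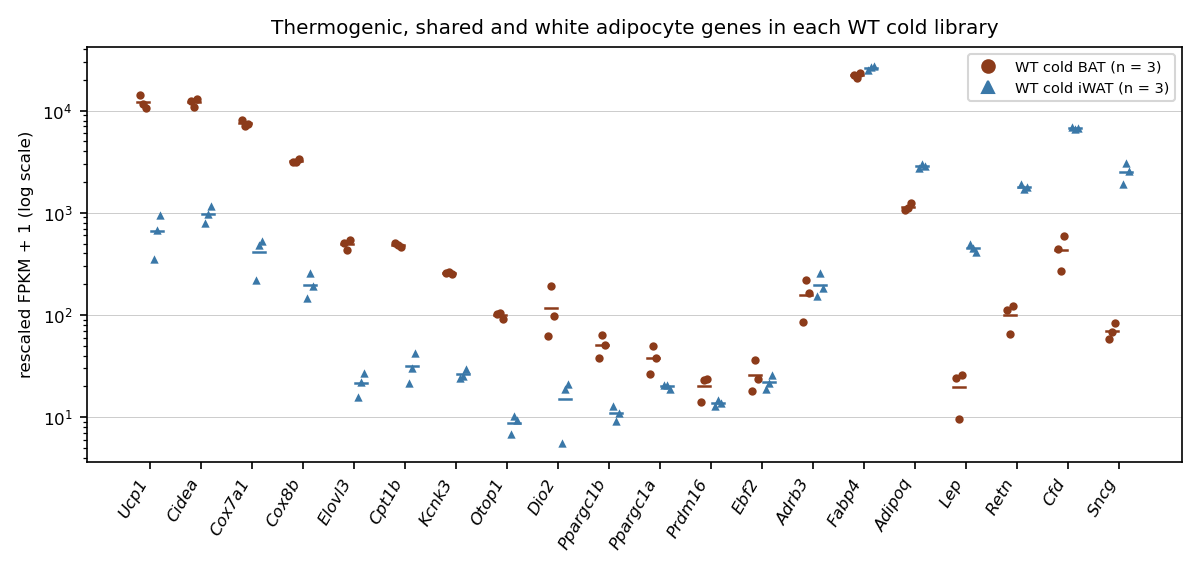
Rescaled FPKM + 1 on a log axis for 20 genes in the 6 WT cold libraries, with 1 point per library and a bar at the mean of each tissue. Ucp1 to Ppargc1b lie higher in every BAT library, Ebf2 and Adrb3 overlap between the tissues, and Lep, Retn, Cfd and Sncg lie higher in every iWAT library.

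Ratios of 2 genes were also taken within each library, after 1 was added to each rescaled value, so they depend little on how libraries are scaled to each other unless a gene is low. With 3 libraries against 3, the exact two-sided permutation test cannot give a p below 0.1, and 15 of the 24 ratios reached that value because their groups did not overlap. Ucp1 relative to the adipocyte hormone gene Adipoq was 10.6 in BAT and 0.212 in iWAT, on average over libraries, so the ratio differed 50.1-fold (exact permutation p = 0.1). Adipoq was itself lower in BAT (log2 difference -1.34), which widens this gap, and Ucp1 alone was 18.4-fold higher. The ratio of Ucp1 to Ucp2 differed 46.2-fold in the same direction. Ucp2, a widely expressed relative that is found in immune cells, was itself lower in BAT, with 48.5, 38.8 and 43.9 against 107, 101 and 102 (log2 difference -1.23, SE 0.11, adjusted p = 4.3e-05; not called under the median-ratio scaling). Ucp3, the muscle relative, was higher in BAT, at 179, 162 and 176 against 71.4, 66.0 and 57.1 (1.40, SE 0.11, adjusted p = 2.3e-05).

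Several other ratios describe which form of an enzyme a tissue used. Cpt1b over Cpt1a, the muscle and liver forms of the enzyme that admits fatty acids to mitochondria, was 44.9 in BAT and 1.00 in iWAT. Fabp3 over Fabp4, the heart and adipocyte fatty acid binding proteins, was 14.5-fold higher in BAT, Acsl5 over Acsl1 16.8-fold, Plin5 over Plin1 7.77-fold and Cidea over Cidec 16.4-fold. Hk2 over Hk1 differed 3.12-fold and Ldhb over Ldha 1.89-fold. In the opposite direction, Cox4i2 over Cox4i1 was 3.47-fold lower in BAT and the ratio of the glucose transporters Slc2a1 over Slc2a4 was 8.32-fold lower. With 0.1 in place of the added 1, the Slc2a1 over Slc2a4 ratio was 9.47-fold lower and Cpt1b over Cpt1a was 49.0 in BAT, and the same number of ratios, 15, did not overlap. Other pairs showed no such shift: the log2 ratio of the adenine nucleotide carriers Slc25a4 over Slc25a5 differed by -0.01 and that of the glycerol 3-phosphate dehydrogenases Gpd2 over Gpd1 by 0.04, with overlapping libraries in both cases.

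Fatty acid oxidation feeds heat production. Of 25 genes of mitochondrial beta oxidation, 22 were called higher in BAT and 1 lower, with a median difference of 1.78. Cpt1b was at 502, 485 and 460 in BAT and 20.5, 29.3 and 41.5 in iWAT (log2 difference 3.999, SE 0.22, adjusted p = 6.1e-06). Of its exon bases 81.4% are shared with the predicted gene Gm44502 on the same strand, so reads of these genes may have been split. Acsl5, which activates fatty acids, stood at 973, 778 and 818 against 43.5, 42.7 and 46.5 (4.24, SE 0.11, adjusted p = 1.2e-06), whereas Acsl1, the main form in adipocytes, was at 1497, 1240 and 1174 against 1233, 1246 and 991 (0.17, adjusted p = 0.30). The dehydrogenases of long chains were higher as well: Acadl was at 6601, 6512 and 6620 against 1196, 1446 and 1484 (2.26, SE 0.12). Acadvl was 7.57-fold higher, but 42.9% of its exon bases lie opposite Dvl2 exons, and the alignment did not use strand. Etfdh, which passes electrons from beta oxidation to ubiquinone, was 6.02-fold and Hadhb, a subunit of the trifunctional protein, 6.10-fold higher. The 1 gene called lower was Cpt1a, at 8.51, 9.11 and 11.96 in BAT and 24.0, 34.1 and 30.6 in iWAT (-1.49, SE 0.18, adjusted p = 2.3e-04); under the median-ratio scaling it was not called. In the list of peroxisomal oxidation 2 of 19 genes were called higher and 1 lower, with a median of 0.51; under the median-ratio scaling 10 were called higher and 1 lower. The gene called lower there was Abcd2, a peroxisomal fatty acid transporter, at 47.2, 52.7 and 60.7 in BAT and 440, 460 and 389 in iWAT (-2.99, SE 0.12, adjusted p = 2.7e-06).

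The tricarboxylic acid cycle, which oxidises acetyl-CoA, had 21 of 23 genes called higher and none lower, with a median of 2.05; 22 of the 23 reached an unadjusted p under 0.05. Sucla2, a subunit of the succinyl-CoA synthetase that makes ATP, was at 3724, 3636 and 3830 in BAT and 557, 660 and 708 in iWAT (log2 difference 2.54, SE 0.12, adjusted p = 3.6e-06). Its BAT libraries lay close together and far above those of iWAT. The exceptions were Idh2, at 388, 377 and 397 against 194, 212 and 225 (0.88, adjusted p = 8.7e-05; called higher under the median-ratio scaling), and Pcx, pyruvate carboxylase, at 425, 384 and 395 against 608, 426 and 359 (-0.17, adjusted p = 0.42).

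In the respiratory chain, which moves electrons from fuel to oxygen, 31 of 36 nuclear genes of complex I, 10 of 10 of complex III with cytochrome c, and 13 of 16 of cytochrome c oxidase were called higher, and none lower. The medians were 1.58, 1.98 and 1.66. Uqcrc2, a core subunit of complex III, was at 728, 665 and 659 in BAT and 141, 142 and 143 in iWAT (2.26, SE 0.08, adjusted p = 2.2e-06). Cycs, cytochrome c itself, was at 1770, 1652 and 1661 against 404, 388 and 443 (2.04, SE 0.09). The smallest difference among these 10 was that of Uqcrh, at 371, 355 and 299 against 165, 158 and 118 (1.22, SE 0.15, adjusted p = 2.3e-04). Within cytochrome c oxidase the tissue-specific forms spread widely, from Cox7a1 at 4.29 to Cox4i2, a subunit form induced in lung and by low oxygen, at -0.22 (adjusted p = 0.076). Cox6a2, a form found in muscle, ran from 1.08 in iWAT 1 to 61.3 in iWAT 3 and overlapped with BAT, where it was at 29.5 to 63.6 (1.62, adjusted p = 0.22).

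ATP synthase, the enzyme that UCP1 bypasses, had 8 of 15 genes called higher and 2 lower, with a median of 1.11, which is below the medians of the chain complexes. Atp5b, its catalytic subunit, was the second most abundant shared gene in BAT, at 18661, 20709 and 18998 against 5470, 5941 and 5370 in iWAT (1.80, SE 0.13, adjusted p = 1.8e-05). The genes called lower were Atpif1 and Atp5g1. Atpif1, the inhibitor that stops the enzyme from running backwards, was at 121, 137 and 136 in BAT and 626, 663 and 558 in iWAT (-2.22, SE 0.10, adjusted p = 3.6e-06); 33.7% of its exon bases lie opposite a predicted gene. Atp5g1, a gene for the membrane ring subunit, was at 0.408, 8.21 and 1.03 against 11.1, 15.2 and 23.9, with log2 differences between -3.33 and -1.97 when 1 library was left out. Mitochondrial ribosomal proteins, which translate the mitochondrial genes, had 28 of 78 genes called higher and none lower, with a median of 0.78; under the median-ratio scaling 57 of the 78 were called higher.

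Of 36 carriers of the inner mitochondrial membrane 17 were called higher and 6 lower. Slc25a20, which exchanges carnitine for acylcarnitine, was at 1438, 1400 and 1399 in BAT and 173, 217 and 261 in iWAT (log2 difference 2.72, SE 0.15). Slc25a34, a carrier with no settled substrate, was at 43.6, 32.5 and 33.9 against 1.75, 3.61 and 6.22 (3.05, SE 0.33). Mpc2, a subunit of the pyruvate carrier, was 3.03-fold higher. By contrast Slc25a10, the dicarboxylate carrier, was at 24.2, 12.4 and 30.4 in BAT and 255, 188 and 196 in iWAT (-3.27, SE 0.30, adjusted p = 5.1e-05).

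**Figure D2:**
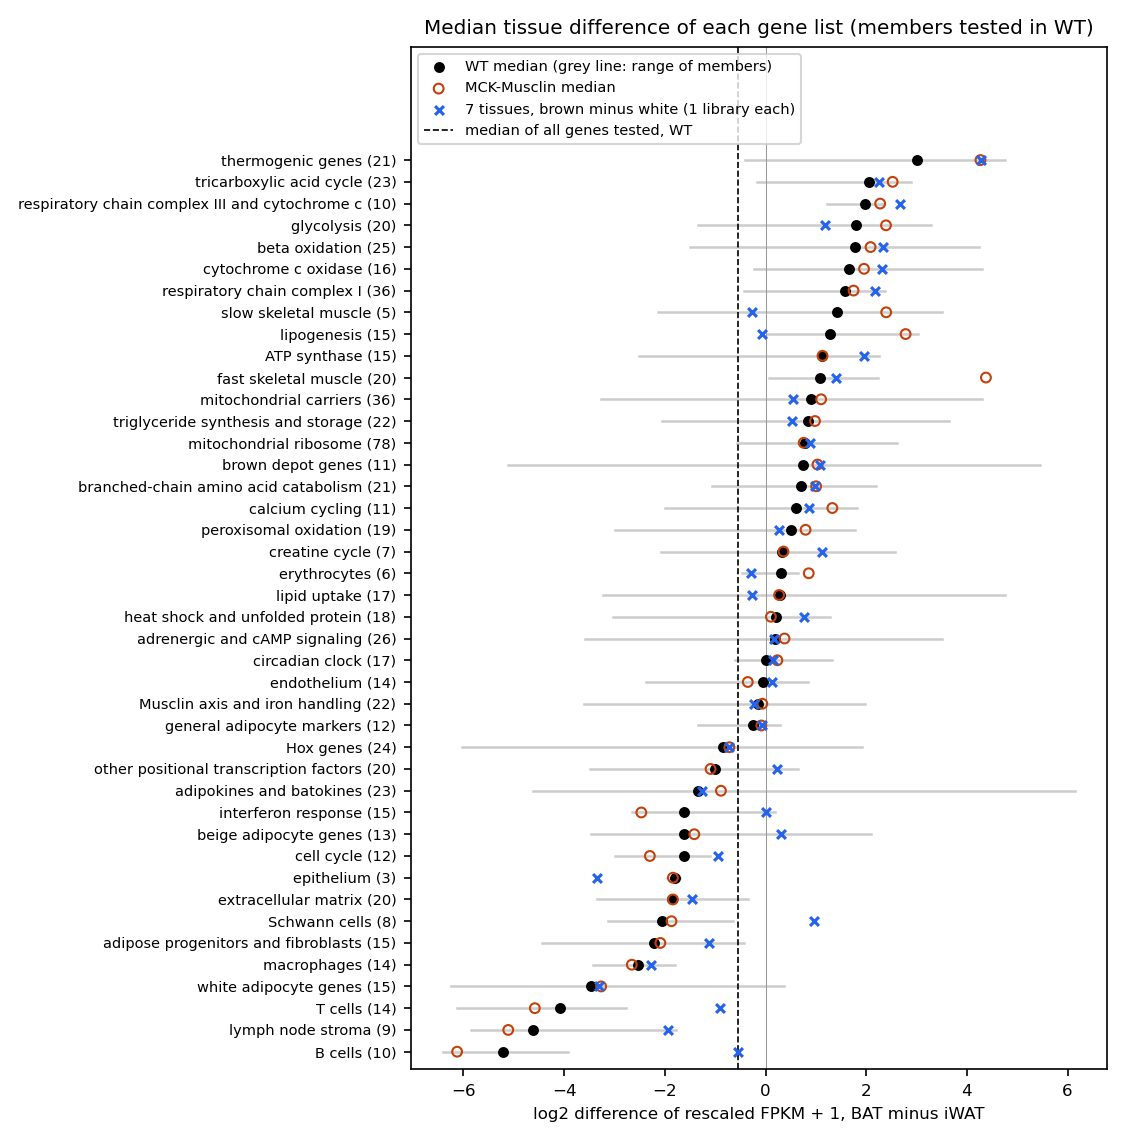
Median log2 difference (BAT minus iWAT) of each gene list in the WT libraries as black points, with the range of its members as a grey line and the number of members tested in brackets. Open circles give the same median in the MCK-Musclin libraries and crosses the brown minus white difference of the 7-tissue table; thermogenic genes sit at 3.01 and B cell genes at -5.22 in WT, and the dashed line marks the median of all genes at -0.54.

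Genes that encode mitochondrial proteins from the nucleus are known to share a few promoter motifs, so the 250 bases before the start of each gene were searched on both strands in the RefSeq promoters of GRCm38.p6. These windows were matched by symbol to 10316 of the genes tested. The motif of nuclear respiratory factor 1, which reads GCGC, any base and TGCGC, was in 17.9% of the 84 windows of the respiratory chain, ATP synthase and tricarboxylic acid cycle genes (15 genes), in 9.04% of the windows of all genes tested, in 9.78% of those called higher under both scalings and in 3.47% of those called lower. The cAMP response element, written TGACGTCA, was in 8.33% of the 84 windows (7 genes), in 2.89% of all genes tested, in 3.44% of those higher and in 1.68% of those lower. Over all 32851 windows of the table the shares were 3.74% and 1.55%. The ETS motif CCGGAAG was in 15.5% of the 84 windows and 15.3% of all genes tested, and the motif of the oestrogen-related receptors, TNAAGGTCA, in 2.38% and 0.834%. These are matches of letters, and binding was not measured. Examples of both motifs are shown with the Ucp1 window, which holds none of the 4; capitals mark the motif and each sequence reads 5′ to 3′ on the strand of its gene. In Sdha the sites lie on the other strand, so the capitals there read GCGCA, any base and GCGC. Sucla2 lies at chr14:73552536-73552785 (plus strand), Sdha, a subunit of succinate dehydrogenase, at chr13:74350241-74350490 (minus strand, with 3 sites), Mdh2, mitochondrial malate dehydrogenase, at chr5:135778399-135778648 (plus strand), Cycs at chr6:50566570-50566819 (minus strand) and Ucp1 at chr8:83290098-83290347 (plus strand).
Sucla2: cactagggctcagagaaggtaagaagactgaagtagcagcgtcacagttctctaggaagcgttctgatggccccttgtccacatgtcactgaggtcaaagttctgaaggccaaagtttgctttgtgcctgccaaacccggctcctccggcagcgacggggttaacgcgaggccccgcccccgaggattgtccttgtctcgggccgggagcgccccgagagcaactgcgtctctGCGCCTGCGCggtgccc
Sdha: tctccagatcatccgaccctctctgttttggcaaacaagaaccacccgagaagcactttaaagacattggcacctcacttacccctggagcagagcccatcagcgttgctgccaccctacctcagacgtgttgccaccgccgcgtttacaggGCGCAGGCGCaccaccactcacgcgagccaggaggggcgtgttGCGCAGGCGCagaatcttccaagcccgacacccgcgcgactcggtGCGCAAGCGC
Mdh2: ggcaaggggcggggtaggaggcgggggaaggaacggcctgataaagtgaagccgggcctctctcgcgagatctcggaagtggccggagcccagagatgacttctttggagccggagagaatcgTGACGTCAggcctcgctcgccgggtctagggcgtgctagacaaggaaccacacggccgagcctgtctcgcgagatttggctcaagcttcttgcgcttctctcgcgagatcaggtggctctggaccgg
Cycs: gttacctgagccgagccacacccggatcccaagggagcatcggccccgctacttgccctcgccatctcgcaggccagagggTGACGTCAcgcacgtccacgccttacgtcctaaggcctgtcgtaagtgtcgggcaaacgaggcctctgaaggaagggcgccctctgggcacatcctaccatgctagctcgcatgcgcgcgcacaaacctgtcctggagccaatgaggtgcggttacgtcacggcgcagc
Ucp1: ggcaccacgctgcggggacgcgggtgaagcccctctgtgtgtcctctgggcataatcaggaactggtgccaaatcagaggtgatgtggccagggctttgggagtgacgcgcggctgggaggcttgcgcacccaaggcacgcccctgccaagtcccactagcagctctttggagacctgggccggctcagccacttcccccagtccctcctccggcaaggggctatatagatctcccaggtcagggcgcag

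The motif examples were picked by abundance in BAT among list genes called higher under both scalings. Their direction was therefore set by the choice and says nothing about the motifs. Sdha was at 2718, 2859 and 2443 in BAT and 747, 690 and 708 in iWAT (log2 difference 1.90, SE 0.10, adjusted p = 5.3e-06), and Mdh2 at 3134, 2990 and 3259 against 876, 934 and 800 (1.85, SE 0.10). Their differences lie near the median of the cycle, while Ucp1, without a match, was at 4.30.

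The mitochondrially encoded genes can be described in BAT only. The most abundant were mt-Atp8 at 63128, 70419 and 59884 FPKM and mt-Cytb, the cytochrome b of complex III, at 49559, 51263 and 62237 FPKM. These levels are above that of every shared gene on the same unscaled FPKM: Fabp4, the most abundant shared gene, had a mean of 5869 FPKM in BAT. In the 7-tissue table, which lists them for both fats, mt-Cytb stood at 55763 FPKM in the brown and 8061 FPKM in the white adipose library (1 library each).

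Of 20 glycolysis genes 12 were called higher and 1 lower, with a median of 1.80. Pfkl, the liver form of phosphofructokinase, was at 1121, 1050 and 1040 in BAT and 108, 97.7 and 123 in iWAT (log2 difference 3.28, SE 0.11, adjusted p = 1.6e-06). Pkm, pyruvate kinase, was at 3377, 3204 and 2987 against 408, 322 and 359 (3.14, SE 0.12), and 15.3% of its exon bases are shared with a predicted gene on the same strand. The transporters went opposite ways: Slc2a4, the insulin-responsive GLUT4, was at 449, 378 and 417 against 138, 134 and 107 (1.71, SE 0.12), and Slc2a1, the ubiquitous GLUT1, at 3.66, 4.14 and 4.26 against 11.4, 13.3 and 10.7 (-1.35, SE 0.15, adjusted p = 1.6e-04; not called under the median-ratio scaling). Gapdh gave no usable comparison, since it stood at 128 in BAT 1 and at 1995 and 1508 in the other BAT libraries, against 746, 758 and 882 in iWAT (adjusted p = 0.91). It has many near-identical copies, and how reads were divided among them is not known: the copy Gapdh-ps15 was at 100, 107 and 113 in BAT and 3.82, 2.79 and 3.88 in iWAT. Pdk4, the kinase that shuts off pyruvate dehydrogenase, was at 701, 1756 and 1012 against 61.5, 270 and 166 (2.93, SE 0.54, adjusted p = 0.0019; between 2.34 and 3.40 on leaving out 1 library).

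De novo lipogenesis, which makes fatty acids from glucose, had 11 of 15 genes called higher and none lower, with a median of 1.29; 13 of the 15 reached an unadjusted p under 0.05. Fasn, fatty acid synthase, was at 3905, 3925 and 3312 in BAT and 1486, 597 and 492 in iWAT (2.29, SE 0.37, adjusted p = 0.0010). Acly, which makes cytosolic acetyl-CoA, was at 4136, 2771 and 2823 against 1135, 317 and 213 (2.90, SE 0.56, adjusted p = 0.0023). In both cases iWAT 1 was the highest iWAT library, by more than 2-fold, and without it the Acly difference was 3.61 (2.41 without iWAT 3). Elovl6, an elongase, was at 406, 2442 and 1990 against 313, 138 and 83.6, again with BAT 1 apart from BAT 2 and BAT 3 (3.02, SE 0.73; between 2.54 and 3.84 on leaving out 1 library). Scd1, the main desaturase, was among the 5 most abundant shared genes in both tissues, at 17981, 20126 and 15462 against 14848, 12427 and 9955 (0.54, adjusted p = 0.042; called higher under the median-ratio scaling). The regulators of this programme differed from each other: Mlxipl, the carbohydrate-responsive factor ChREBP, was 5.11-fold higher, and Srebf1 was at 176, 106 and 107 against 143, 109 and 121 (0.03, adjusted p = 0.91).

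In the synthesis and storage of triglyceride 9 of 22 genes were called higher and 1 lower. Gpd1, which makes glycerol 3-phosphate, was at 15173, 14011 and 14502 in BAT and 2385, 1896 and 2030 in iWAT (log2 difference 2.80, SE 0.13, adjusted p = 3.8e-06). Gpd2, its mitochondrial partner, was at 602, 601 and 542 against 96.7, 78.8 and 68.3 (2.84, SE 0.13). The droplet coat proteins differed in kind: Plin5 and Plin2 were 6.32-fold and 3.54-fold higher, Plin1 was at 986, 1066 and 1124 against 1318, 1164 and 1292 (-0.25, adjusted p = 0.058), and Plin4 was lower, at 136, 167 and 136 against 502, 767 and 589 (-2.05, SE 0.17). Agpat2 could not be compared, with 6492 in BAT 2 and 1931 in iWAT 2 against 224 to 892 in the other 4 libraries (adjusted p = 0.18). In lipid uptake 6 of 17 genes were called higher and 1 lower. Fabp3 was at 1729, 1485 and 1472 against 50.2, 143 and 281 (3.61, SE 0.53, adjusted p = 6.0e-04), and 2.95 without iWAT 1. Lpl, which frees fatty acids from lipoproteins, was at 2183, 1948 and 2074 against 3918, 3756 and 3540 (-0.85, adjusted p = 2.4e-04), short of a call.

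Branched-chain amino acids are a fuel of BAT, and 7 of 21 genes of their breakdown were called higher and 1 lower, with a median of 0.70; under the median-ratio scaling 15 were called higher and none lower. Bckdha, a subunit of the dehydrogenase that commits them to oxidation, was at 337, 387 and 377 in BAT and 102, 102 and 105 in iWAT (1.83, SE 0.09, adjusted p = 4.0e-06).

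Heat can also be made by cycles that spend ATP. Of 7 genes of the creatine cycle 1 was called higher and 2 lower. Alpl, a phosphatase of phosphocreatine, was at 96.7, 80.2 and 110 in BAT and 13.1, 14.6 and 17.6 in iWAT (log2 difference 2.58, SE 0.16, adjusted p = 8.2e-06). Ckb, the creatine kinase of this cycle, was at 79.8, 46.9 and 74.1 against 49.7, 45.6 and 61.6 (0.32, adjusted p = 0.21). Gatm, which makes the creatine precursor, was lower, at 4.16, 2.51 and 4.99 against 18.4, 18.2 and 21.3 (-2.08, SE 0.22). Among 11 genes of calcium cycling 2 were called higher and 3 lower, and the median of the list relative to all genes went from 1.15 to -0.096 when iWAT 1 was left out. That list holds the muscle genes Atp2a1 and Casq1, whose values in iWAT follow the muscle markers described below.

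Adrenergic and cAMP signaling had 7 of 26 genes called higher and 5 lower, with a median of 0.19. Among the receptors Adra1a, an alpha1 receptor, was at 30.3, 45.9 and 33.3 in BAT and 5.12, 7.81 and 6.43 in iWAT (log2 difference 2.32, SE 0.21, adjusted p = 4.3e-05), and Adrb1 at 27.3, 28.0 and 14.6 against 11.9, 6.74 and 8.90 (1.23, SE 0.29, adjusted p = 0.0062). Gnas, the stimulatory G protein, was 6.66-fold higher, with 1868, 2215 and 2136 against 279, 297 and 356 (2.74, SE 0.12), while the inhibitory Gnai2 was lower at 187, 188 and 206 against 572, 674 and 572 (-1.64, SE 0.10). Among adenylyl cyclases, which make cAMP, Adcy3 was at 566, 537 and 349 in BAT and 26.1, 46.5 and 56.3 in iWAT (3.50, SE 0.30, adjusted p = 3.5e-05), with 22.1% of its exon bases opposite Cenpo. Adcy5 was at 1.98, 1.33 and 2.83 against 27.4, 38.3 and 40.6 (-3.59, SE 0.23, adjusted p = 1.1e-05). Pde4d, which degrades cAMP, was 4.24-fold higher.

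White adipocyte genes were the mirror of this list: 14 of 15 were called lower in BAT and none higher, with a median of -3.47, and 14 of the 15 reached an unadjusted p under 0.05. Lep (chr6:29060220-29073877, plus strand, GRCm38), the gene of leptin, was at 23.4, 8.60 and 24.6 in BAT and 489, 447 and 410 in iWAT, 22.6-fold lower (log2 difference -4.63, SE 0.35, adjusted p = 2.1e-05). Retn, resistin, was at 111, 64.2 and 122 against 1920, 1697 and 1797 (-4.22, SE 0.23). Nnat, a small membrane protein of white fat and brain, had the widest gap, at 9.91, 15.1 and 11.1 against 579, 1274 and 1276 (-6.25, SE 0.31, adjusted p = 4.5e-06), with iWAT 1 the lowest of the iWAT libraries. Sncg, gamma-synuclein, was at 57.6, 67.7 and 81.5 against 1904, 3058 and 2544 (-5.15, SE 0.19), and Slc7a10, an amino acid transporter of white adipocytes, was 11.1-fold lower. BAT 2 was the lowest BAT library for Lep, Retn and the complement gene Cfd, which stood at 438, 271 and 589 against 6855, 6573 and 6691. The exception was Fgf1, a growth factor, at 18.9, 21.2 and 23.6 against 12.2, 19.4 and 17.7 (0.37, adjusted p = 0.12).

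Genes shared by all adipocytes, by contrast, were close. Of 12 such genes none was called higher and 1, Adipoq, was called lower, with a median of -0.25. An unadjusted p under 0.05 was reached by 7 of the 12, a smaller share than the 68.6% or more of all genes tested. Adiponectin (Adipoq) was at 1058, 1105 and 1244 in BAT and 2718, 3014 and 2900 in iWAT (-1.34, SE 0.11, adjusted p = 2.7e-05), and was not called under the median-ratio scaling. Fabp4, the lipid carrier that ranks first in BAT and second in iWAT, was at 22116, 20834 and 23618 against 24744, 26849 and 27457 (-0.25, adjusted p = 0.19). Cidec, a droplet fusion protein of white fat, was at 2229, 2299 and 2216 against 2609, 3806 and 2602 (-0.40, adjusted p = 0.062). The most abundant gene of iWAT was Car3, a carbonic anhydrase, at 25976, 24988 and 32099, against 1269, 959 and 2394 in BAT (-4.27, SE 0.32, adjusted p = 1.9e-05). Apoe, an apolipoprotein made by adipocytes and macrophages, ranked 3 there and was 9.42-fold lower in BAT.

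Secreted factors that could be tested leaned the same way, with 13 of 23 adipokine and batokine genes called lower and 2 higher (10 and 6 under the median-ratio scaling). Of the 32 genes listed, 8 have no iWAT value and are not in these counts. Among them Bmp8b and Ptgds had means of 3.07 and 6.10 FPKM in WT BAT. Kng2 (chr16:22985854-23029482, minus strand, GRCm38), a kininogen that is cut to bradykinin, was the largest increase among all genes named by the rule, at 245, 206 and 222 in BAT and 2.28, 1.14 and 3.48 in iWAT (68.3-fold, log2 difference 6.16, SE 0.25, adjusted p = 3.1e-06). Igf1 was at 6.11, 5.62 and 14.6 against 110, 136 and 98.0 (-3.67, SE 0.32). Vegfa, which drives vessel growth, was at 549, 590 and 488 against 240, 362 and 259 (0.93, adjusted p = 0.0015), and Nrg4, a batokine that acts on liver, at 321, 379 and 326 against 242, 250 and 259 (0.45, adjusted p = 0.0042); neither difference reached the size for a call, except under the median-ratio scaling, where both did.

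Published depot markers divided less cleanly. Of 11 brown depot genes tested 4 were called higher and 2 lower. Acot11 (chr4:106744555-106804998, minus strand, GRCm38), a thioesterase, was at 453, 505 and 498 in BAT and 8.71, 11.4 and 10.5 in iWAT (log2 difference 5.45, SE 0.12, adjusted p = 7.7e-07), with 20.9% of its exon bases opposite Fam151a. Lhx8, a homeobox gene used to mark classical brown fat, was at 7.31, 10.3 and 6.98 against 8.35, 11.8 and 8.57 (-0.21, adjusted p = 0.39), and its libraries overlapped. Epsti1, also on that list, was much lower in BAT, at 6.59, 3.92 and 6.70 against 258, 228 and 201 (-5.12, SE 0.20, adjusted p = 2.4e-06); it is an interferon-responsive gene of immune cells, whose markers were lower too, and their part was not tested. Of 13 beige adipocyte genes 7 were called lower in BAT and 3 higher. Tbx1, a T-box factor, was at 0.154, 0.139 and 0.221 against 9.85, 5.03 and 4.70 (-2.62, SE 0.27), and Shox2 at 5.42, 7.48 and 6.42 against 27.5, 43.4 and 33.1 (-2.25, SE 0.20). P2rx5, a purinergic receptor, and Slc36a2, an amino acid transporter, both surface proteins of brown and beige adipocytes, were higher in BAT, by 4.18-fold and 2.56-fold.

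Hox genes, which keep a record of position along the body axis, ordered by paralog number. The low numbers (groups 1 to 5) act towards the head and the high numbers towards the tail. Of 24 Hox genes tested 2 were called higher in BAT and 9 lower, near the shares over all genes tested (6.95% higher and 31.3% lower). The counts over all Hox genes thus do not set them apart, and the order across groups is described here. Both of the higher genes were in groups 1 to 5, where 11 genes were tested and none was called lower: Hoxa4 was at 37.8, 40.8 and 33.1 against 7.54, 8.48 and 11.9 (log2 difference 1.91, SE 0.18, adjusted p = 6.3e-05), and Hoxa5 at 24.1, 28.1 and 18.5 against 5.85, 6.72 and 6.37 (1.73, SE 0.18). In groups 6 to 8, 3 of 7 genes were called lower, among them Hoxc8 at 39.4, 26.3 and 26.7 against 371, 305 and 360 (-3.46, SE 0.17, adjusted p = 4.1e-06). Hoxc6 was called lower by a narrow margin and lost the call without iWAT 1 and under the median-ratio scaling.

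In groups 9 and above all 6 genes tested were called lower in BAT. The highest of their BAT means was 0.819, for Hoxa9, so they passed the filter on the mean only through iWAT. That left little room for another direction, and the count of calls by itself carries little weight. Hoxb9, at a mean of 0.151 in BAT and 1.48 in iWAT, was too low to be tested, and 13 more Hox genes have no iWAT value. Hoxc9 was at 0, 0.108 and 0.173 in BAT and 38.8, 43.4 and 38.1 in iWAT (-5.23, SE 0.15, adjusted p = 1.6e-06). Hoxc10 was listed at 0 in all 3 BAT libraries and stood at 75.8, 55.4 and 64.6 in iWAT (adjusted p = 1.6e-06), and Hoxa10 and Hoxd10 were likewise listed at 0 in BAT. Summed over the means of the tested genes, groups 1 to 5 came to 131 in BAT and 68.9 in iWAT, groups 6 to 8 to 89.7 and 482, and groups 9 and above to 1.26 and 133. Neighbouring Hox genes share exons and antisense transcripts, so a single gene's value is less certain than the order across groups. Of 30 other positional factors listed, 10 have no iWAT value and could not be compared. Zic1 and Zic4 are among these, at means of 1.86 and 0.314 FPKM in WT BAT before rescaling. Of the 20 tested, 10 were called lower in BAT and none higher (8 lower and 1 higher under the median-ratio scaling). Those called lower include Emx2 at 0.446, 0 and 0 against 10.5, 12.2 and 12.2, and Irx1 at 1.61, 0.367 and 0.805 against 16.9, 18.7 and 17.3. Nr2f2, a nuclear receptor, was also lower, at 14.1, 16.5 and 10.6 against 55.0, 60.6 and 53.7.

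**Figure D3:**
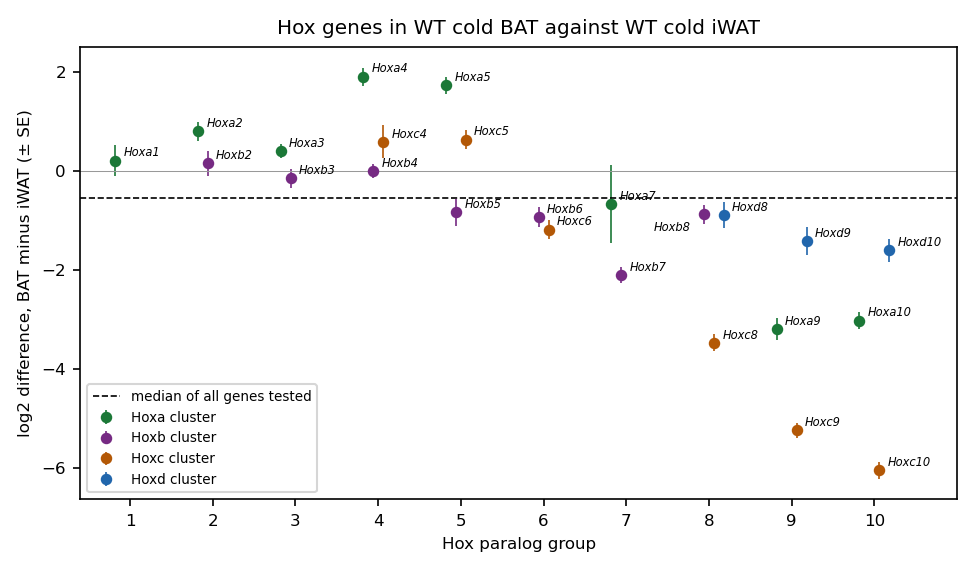
Log2 difference (BAT minus iWAT) of the 24 Hox genes tested against their paralog group, coloured by cluster, with bars for the SE and a dashed line at the median of all genes. Points fall from Hoxa4 at 1.91 to Hoxc9 at -5.23; the lowest point, Hoxc10, and those of Hoxa10 and Hoxd10 rest on values listed at 0 in BAT, so the 1 added before the log sets their size.

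Markers of other cell types were measured too, and in bulk tissue fewer cells of a type and less RNA per cell cannot be told apart. All 10 B cell genes and all 14 T cell genes tested were called lower in BAT, with medians of -5.22 and -4.08. Summed over the B cell list, the BAT libraries held 4.72 to 7.46 and the iWAT libraries 508 to 971. For T cells the ranges were 6.44 to 7.30 and 390 to 578. These BAT sums are below the numbers of genes, so on average a member was under the filter mean of 1 in BAT. Such members passed through their iWAT values and could hardly be called higher, and the added 1 limits the size of their differences. The same holds for Glycam1 below. The counts of calls therefore add little to the sums. Cd79a, part of the B cell receptor, was at 2.41, 1.13 and 2.36 against 368, 224 and 182, and Cd3g, part of the T cell receptor complex, at 0.484, 0 and 0.935 against 106, 81.1 and 111. All 9 genes of lymph node stroma were called lower too. Their sums were 9.28 to 20.6 in BAT and 596 to 1076 in iWAT, and Glycam1, a ligand on the high endothelial venules of lymph nodes, was listed at 0 in BAT and stood at 21.1, 25.6 and 27.0 in iWAT. Cxcl13, the follicle chemokine, was highest in iWAT 1 at 699, against 287 and 216 in the other iWAT libraries, and was 4.17 to 8.63 in BAT. The defining lymph node genes were thus present in every iWAT library, and their part in the differences of other genes was not tested.

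Marco (chr1:120474538-120505024, minus strand, GRCm38), a scavenger receptor of macrophages in lymph nodes and spleen, was the largest decrease named by the rule, at 0.101, 0 and 1.46 in BAT and 547, 434 and 174 in iWAT (log2 difference -7.96, SE 0.49, adjusted p = 8.3e-06). Cd209b, another receptor of such macrophages, was at 1.21, 0.349 and 2.104 against 296, 222 and 142. Both genes had the same order of iWAT libraries as Cd79a, with iWAT 1 highest and iWAT 3 lowest. General macrophage genes were lower by less: all 14 were called lower, with a median of -2.53 and sums of 241 to 313 in BAT and 2130 to 2196 in iWAT. Lyz2, lysozyme, was at 87.8, 82.7 and 109 against 997, 917 and 870 (-3.31, SE 0.12), and Csf1r, the receptor for the macrophage growth factor, was 7.26-fold lower. Interferon-responsive genes were called lower in 14 of 15 cases and cell cycle genes in 12 of 12, with medians of -1.61 and -1.62; under the median-ratio scaling 9 and 10 of them were.

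Stromal cells followed. Of 15 genes of adipose progenitors and fibroblasts 13 were called lower in BAT, with a median of -2.21, and of 20 extracellular matrix genes 14, with a median of -1.86; none in either list was called higher, although 14 of the 15 and all 20 reached an unadjusted p under 0.05. Dcn, decorin, was at 116, 101 and 126 against 997, 1009 and 1285 (-3.25, SE 0.13, adjusted p = 3.1e-06). Dpp4, a marker of early progenitors, was at 1.70, 2.46 and 2.82 against 45.2, 48.0 and 43.0 (-3.82, SE 0.17). Pdgfra, the progenitor receptor, was at 11.4, 6.55 and 7.00 against 38.4, 41.5 and 46.0 (-2.24, SE 0.21); its ratio to Adipoq within a library, which sets it against adipocyte RNA, was 1.86-fold lower in BAT (2.03-fold with 0.1 added) without overlap (exact permutation p = 0.1). Schwann cell genes were called lower in 7 of 8 cases, with a median of -2.06; under the median-ratio scaling 5 of the 8 were.

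Endothelial genes had 3 of 14 members called lower, none higher and a median of -0.06. An unadjusted p under 0.05 was reached by 6 of the 14, a smaller share than the 68.6% or more of all genes tested. Cdh5, the cadherin of vessel walls, was at 234, 245 and 246 against 217, 268 and 222 (0.04, adjusted p = 0.73), and Kdr, the main VEGF receptor, at 117, 113 and 111 against 101, 101 and 100 (0.17, adjusted p = 0.086). Vwf, a clotting protein of larger vessels, was lower, at 5.79, 3.84 and 6.75 against 14.4, 16.3 and 18.4 (-1.45, SE 0.21; not called under the median-ratio scaling). Red cell genes were not called in either direction in any of 6 cases, and 1 of the 6 reached an unadjusted p under 0.05.

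**Figure D4:**
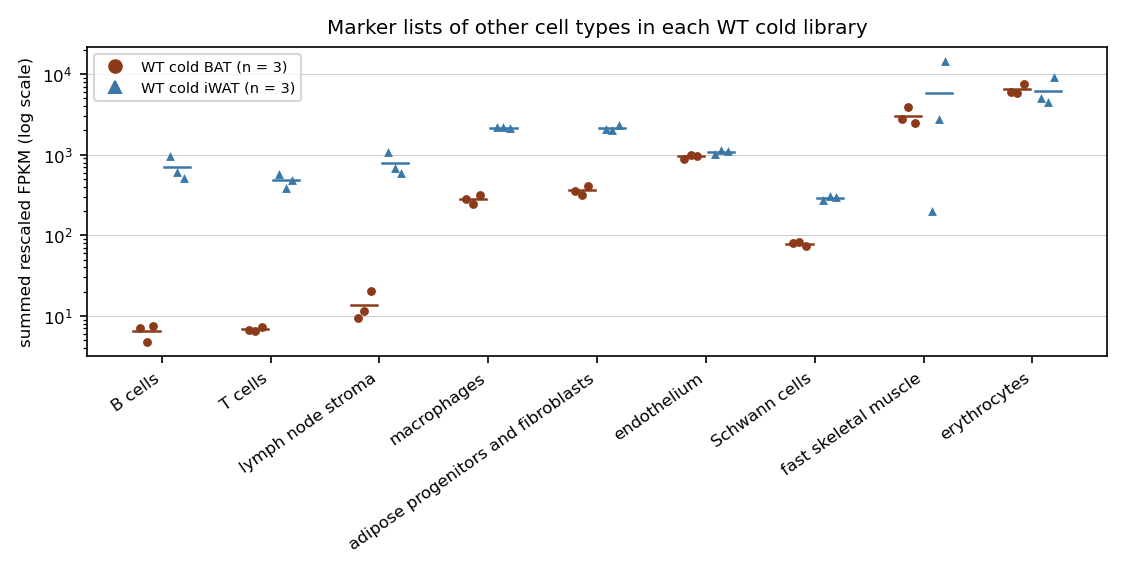
Summed rescaled FPKM of the marker lists of other cell types on a log axis, with 1 point per library and a bar at the mean of each tissue. B cell, T cell and lymph node sums are higher in every iWAT library, endothelial sums are 897 to 994 in BAT and 1016 to 1130 in iWAT, and the fast muscle sum runs from 200 to 14531 across the iWAT libraries.

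Skeletal muscle RNA varied between libraries of the same tissue. The 20 fast muscle genes summed to 2509 to 3855 in BAT, and in iWAT to 200 in the lowest library, iWAT 1, and to 14531 in the highest, iWAT 3. Myh4, the myosin of the fastest fibres, was at 344, 473 and 281 in BAT and 0, 296 and 1686 in iWAT, and Acta1, skeletal actin, at 173, 311 and 198 against 3.02, 101 and 844. No fast muscle gene was called in either direction, none reached an unadjusted p under 0.05 in limma, 2 were called higher under the median-ratio scaling, and without iWAT 3 there were 5 called higher in BAT. Genes that muscle shares with brown fat, such as Cox6a2, Fabp3, Fbp2 and Cox7a1, were lowest in iWAT 1 as well. Cox7a1 was at 220, 486 and 532 in the iWAT libraries, in the order of their muscle sums, and had a mean of 7565 in BAT. The thermogenic genes Ucp1, Cidea, Elovl3 and Slc27a2 were also lowest in iWAT 1 and rose in the same order. Ppargc1b, by contrast, was highest in iWAT 1. The part of muscle RNA in the values of Cox6a2, Fabp3, Fbp2 and Cox7a1 was not tested. In the MCK-Musclin libraries all 20 fast muscle genes were called higher in BAT, with a median of 4.38 against 1.08 in WT.

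Among the largest differences, several concern genes with close copies. The 12 largest increases included Kng2, Eno1b, Acot11, Aspg, Slc27a2, Ttc25, Elovl3, Myo5b, Fbp2, Ucp1 and Cox7a1. Myo5b, a motor of vesicle recycling, was at 128, 121 and 135 against 3.84, 4.498 and 5.46 (log2 difference 4.54, SE 0.14), and Aspg, an asparaginase, at 340, 282 and 212 against 6.42, 6.25 and 7.76 (5.14, SE 0.18). Eno1b is a retrocopy of the glycolytic gene Eno1 and Gapdh-ps15, also among these 12, a copy of Gapdh, and their values depend on how reads were divided with the parent genes. The 12 largest decreases held 5 major urinary protein genes, Mup8, Mup9, Mup10, Mup11 and Mup18; these pheromone carriers are nearly identical to each other and are best read as 1 group. Mup8, Mup9 and Mup18 were listed at 0 in all BAT libraries, and Mup18 was at 221, 306 and 119 in iWAT.

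Ribosomal protein genes, chosen after their values were seen, were lower in BAT as a group. Of 78 tested, 54 were called lower and 1 higher, with a median of -1.56, and they summed to 2.40% to 2.56% of the shared RNA in BAT and 6.53% to 7.30% in iWAT. Under the median-ratio scaling 38 were called lower and 2 higher. Rpl17 was at 44.0, 29.1 and 32.4 in BAT and 3032, 2378 and 2961 in iWAT, and Rpl7a at 10.1, 8.32 and 10.2 against 816, 754 and 741. Rps6, by contrast, was 3.51-fold lower. In the 7-tissue table, where both fats stand in 1 table, the same genes took 3.10% in brown and 2.96% in white adipose tissue, with a median difference of 0.09, and Rpl17 was at 664 and 727. The BAT table also lists 472 processed pseudogenes with a mean of at least 1 FPKM that are missing from the iWAT table, among them Rpl17-ps3 at 133, 107 and 135 FPKM, Mpc1-ps at 792, 760 and 744 FPKM and Ndufa12-ps at 425, 384 and 379 FPKM. In the brown adipose library of the 7 tissues these 3 stood at 1.94, 6.32 and 1.08 FPKM. The parent genes Mpc1 and Ndufa12 had differences of 0.84 (adjusted p = 5.6e-04) and -0.43 (adjusted p = 0.11). Values of genes with expressed copies are therefore uncertain between these tables.

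**Figure D5:**
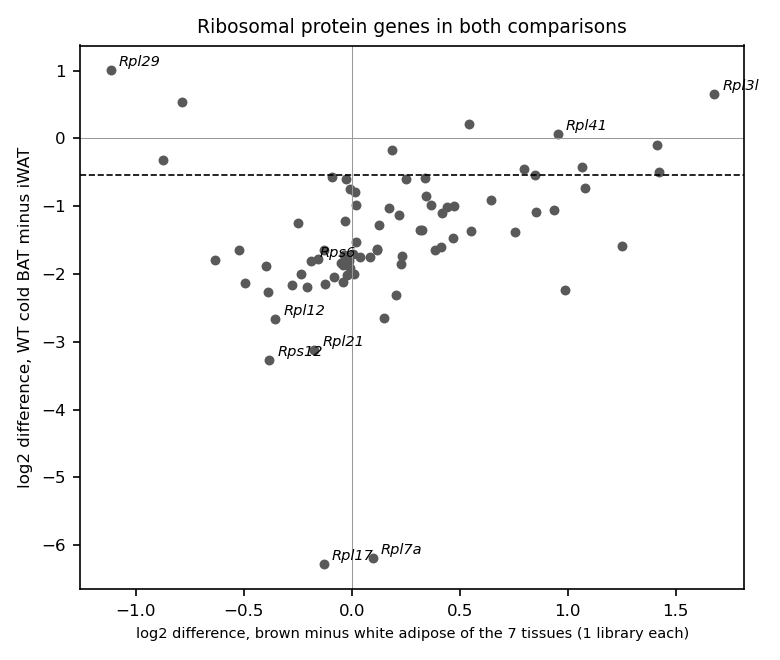
Log2 difference of each of the 78 ribosomal protein genes tested in WT cold BAT minus iWAT (vertical axis) against the brown minus white difference of the 7-tissue table (horizontal axis, 1 library each). The dashed line marks the cold median of all genes at -0.54; most points lie below it, while they spread on both sides of 0 on the horizontal axis, with Rpl17 and Rpl7a lowest.

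The study's own subject, the Musclin pathway, had 2 of 22 genes called higher and 5 lower, iron handling included, with a median of -0.15. Over all genes tested 6.95% were called higher and 31.3% lower, so these counts do not set the list apart. Musclin is a relative of the natriuretic peptides and a known ligand of their clearance receptor Npr3. The study proposes the transferrin receptor Tfrc (Tfr1) as its receptor on adipocytes. After cold exposure the study found more Tfr1 protein in mature adipocytes of iWAT than in those of BAT. The values here are RNA of whole tissue, which is a different measure. Npr3 was at 39.9, 42.1 and 49.7 in BAT and 110, 143 and 93.8 in iWAT (log2 difference -1.36, SE 0.17, adjusted p = 2.3e-04), and was not called under the median-ratio scaling. The signaling receptor Npr1 was at 19.7, 17.0 and 19.1 against 27.6, 31.5 and 31.8 (-0.67, adjusted p = 0.0016). Tfrc was at 24.8, 25.8 and 20.2 against 31.5, 24.6 and 23.5 (-0.16, adjusted p = 0.39). Its relative Tfr2 was higher in BAT, at 18.8, 12.8 and 14.7 against 2.42, 5.18 and 2.29 (1.98, SE 0.28, adjusted p = 4.6e-04), and Trf, transferrin, was lower, at 72.3, 40.5 and 77.1 against 637, 559 and 1206 (-3.61, SE 0.34), although 63.5% of its exon bases are shared with a predicted gene on the same strand.

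The same comparison was made in 6 libraries of cold-exposed MCK-Musclin mice, which share the tables and the extraction but no library with the WT comparison. There 1141 of 13029 genes were called higher in BAT (8.76%) and 4381 lower (33.6%), together 42.4%. Of the 900 WT genes 815 were called higher there too, which is 90.6% of the WT list and 71.4% of the MCK-Musclin list, and 3620 of the 4025 lower WT genes tested in both were called lower. Ucp1 had a log2 difference of 7.51 in the MCK-Musclin libraries against 4.30 in WT, and its mean in MCK-Musclin iWAT was 184 against 659 in WT iWAT. The difference between these differences was not significant by the limma interaction test (adjusted p = 0.51), and over all 13008 genes that test gave 0 genes with an adjusted p under 0.05 and 1260 with an unadjusted p under 0.05.

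The brown and white adipose libraries of the 7-tissue table came from WT mice with no cold exposure stated, 1 library each, and the label does not name the white depot. The brown minus white difference there had the same sign as in the cold for 89.3% of the 900 genes called higher and for 85.2% of the 4054 called lower. Over all genes tested its median was -0.22, so a negative sign was the more common one regardless of call. Ucp1 was at 1943 in the brown and listed at 0 in the white library, and Cidea at 6819 and 1.13, so neither was near its cold iWAT level in that white fat. The beta oxidation median was 2.34 there and 1.78 in the cold, and the complex I median 2.18 and 1.58. Lipogenesis had a median of -0.07 there and 1.29 in the cold: Fasn was at 298 in the brown and 356 in the white library. Elovl3 was at 0.359 and 0, against 430 to 544 in cold BAT, and Acsl5 at 34.0 and 43.4, against 778 to 973. The lymphocyte lists also differed, with medians of -0.56 for B cells and -0.90 for T cells.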

How the data were processed

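BAT and iWAT of cold-exposed mice were profiled by RNA-seq, in 3 libraries per tissue and genotype. The authors trimmed reads with fastp, aligned them with HISAT2 (2.1.0) to the mouse genome GRCm38 without strand information, and deposited FPKM per gene, 1 table per tissue; the submitters' processing notes also list Bowtie2 (2.4.1) and Cuffdiff. The deposited FPKM are not counts, so depth per library is unknown and no counting interval is given. The tables also hold group means, fold changes, p-values and adjusted p-values of the authors' own comparisons, which were not used; 0 columns of per-sample values were left unmapped.

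Groups were taken from the sample labels. The BAT and iWAT tables were joined on gene ID, each library was rescaled to 1000000 over the 13750 shared genes, and genes with a mean of at least 1 were fitted as log2(value + 1) in limma (3.58.1, R 4.3.3) with an intensity trend and Benjamini-Hochberg adjustment. Differences of genes with low values are shrunk by the added 1. Because the tables were normalized separately, levels set across them rest on the rescaling. The fit was tested on simulated data: of 100 genes changed by a log2 of 1.5 it called 85, of 100 changed by 2 it called 92, and of 12747 unchanged genes it called 4. The changed genes left out the lowest levels, and the simulated noise was normal with no shift in scaling between tissues. The simulation therefore does not cover low genes or the choice of scaling. Within-library ratios were compared by an exact permutation test. Gene positions and exon overlaps came from GENCODE M21. Named genes were members of the 42 lists and 24 pairs, the 12 largest called increases and decreases with libraries that did not overlap (predicted genes left out), the 10 most abundant genes of each tissue and the most abundant genes missing from the iWAT table. The comparison, the lists and the pairs were chosen with earlier results of these data known, and the ribosomal protein genes after their values were seen. Alternatives were other scalings, added constants, filters, size limits, fits, a replicate block and leaving out each library.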

Additional observations from a re-analysis of the deposited data

How the results depend on the processing

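Of 2979 values of 157 named genes under alternative settings, 2925 kept their direction and their side of the threshold, 23 lost a call, 31 gained one and 0 changed the direction of a call, while 39 values called in neither setting changed sign. The count of higher genes (900) was 433 on FPKM as deposited, 1824 under median-ratio scaling, 1918 under quantile normalization, 1639 with a log2 limit of 0.5, 225 with a limit of 2 and 1938 with none. The count of lower genes (4054) was 4916 as deposited, 2518 under median-ratio scaling, 1954 under quantile normalization, 6362 with a log2 limit of 0.5, 1481 with a limit of 2 and 6948 with none. The MCK-Musclin counts under median-ratio scaling, chosen after seeing the data, were 2139 higher and 2830 lower. The size limits change the counts by construction; the cause of the shifts between scalings was not tested. Leaving out 1 library gave 885 to 914 higher and 3989 to 4068 lower genes. Same-numbered BAT and iWAT libraries had deviations correlated at 0.12, 0.054 and -0.030, so the numbers were not taken to pair them; with a replicate block the counts were 905 and 4064.

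List medians relative to the median of all genes kept their place in 280 of 294 settings. Under median-ratio scaling the tricarboxylic acid cycle moved to 2.64, the mitochondrial ribosome to 1.37 and lymph node stroma to -4.28. On leaving out 1 library, calcium cycling ranged from -0.096 (without iWAT 1, a change of sign) to 1.499, the creatine cycle from 0.24 to 1.11, peroxisomal oxidation from 0.87 to 1.05, the mitochondrial ribosome from 1.21 to 1.37, triglyceride synthesis from 1.12 to 1.54, Musclin and iron genes from 0.32 to 0.49 and epithelium from -1.75 to -0.99. Unknown depth limits the reading of values near or listed at 0, and tissue, extraction and table cannot be told apart.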

Other observations

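Other gene groups were also measured. Of 17 circadian clock genes 3 were called higher in BAT and none lower, with a median log2 difference of 0.00. An unadjusted p under 0.05 in limma was reached by 8 of the 17, a smaller share than the 68.6% or more of all genes tested. Of 18 heat shock and unfolded protein genes 2 were called higher and 2 lower, with a median of 0.21. Of 11 epithelial genes listed, 6 are in both tables, and all of these were at 0 in BAT. The 3 tested passed the filter on the mean only through iWAT, so their lower calls were set in advance. Among them Epcam, an adhesion protein of epithelia, stood at 3.07, 1.47 and 2.44 in iWAT. Of 5 slow muscle genes 1 was called higher and 1 lower.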
